A study of Mus musculus with 8 samples.

Results

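Integrins and laminins are the receptors and the matrix proteins through which epithelial cells hold on to a basement membrane, and their genes were followed here across 8 RNA sequencing libraries of cultured mouse liver progenitors. They were taken by symbol from the Itga and Itgb genes and the Lama, Lamb and Lamc genes of the table, and 37 of 23467 genes are described. These are 27 integrin genes, of which 18 encode alpha and 9 beta subunits, and 10 laminin genes, of which 5 encode alpha, 3 beta and 2 gamma chains. The symbols of integrin-binding proteins and of Itgbl1, 4 in all, were left out. Among the integrins, 9 that are known from leukocytes and Itga2b, the platelet subunit, were kept apart from the other 17.

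Hepatoblasts, the bipotent progenitors of the fetal liver, had been isolated from livers of E14.5 embryos on a B6;129 mixed background and cultured on collagen (iHB). They were also differentiated to hepatocytes with Oncostatin M (iHP) or to biliary epithelial cells on Matrigel for 14 days (iBEC). Control cells are labelled wild type, and the others carry Lats1-/-;Lats2f/fl;Alb-cre and are called L1L2_Alb, where the Albumin promoter drives the Cre that acts on floxed Lats2 and Lats1 is labelled as null. LATS1/2 are the kinases of the Hippo pathway that restrain YAP and TAZ. Each stage had 1 control library, with 1 L1L2_Alb library of iHBs, 2 of iHPs and 2 of iBECs. All libraries are from cultures, Matrigel is itself a laminin-rich gel that only the iBECs were grown on, and nothing states whether libraries of a condition came from separate embryos, so p-values measure the spread between these libraries, which may be technical.

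Depth recovered from the values was 18436865 to 33229075 reads per library. The targeted genes did not check the labels, since gene-wide values need not show a deleted part. Lats1 was at 5.38 to 11.2 RPKM (reads scaled to gene length and library size) in the controls. In the L1L2_Alb libraries it was at 7.12 to 22.7 RPKM. Lats2 was at 6.90 to 10.1 RPKM in the controls and 10.9 to 27.6 RPKM in L1L2_Alb. In the limma test used below, Lats2 was higher in L1L2_Alb, by 0.904 on the log2(RPKM + 1) scale (adjusted p = 0.0312). Lats1 did not pass (adjusted p = 0.46). The study itself reports lower LATS1/2 expression in its L1L2_Alb cells. The libraries are therefore given as the libraries labelled L1L2_Alb. Alb, the main hepatocyte product, and Krt19, a biliary keratin, were detected in every library, at 524 to 6162 and 83.7 to 494 RPKM. The 5 biliary markers did not share an order, since Krt7, Krt19 and Epcam were lowest and Spp1 was highest, at 23270 RPKM, in the control iBECs, where the sum of the list was also highest (23430 RPKM). The cultures also held blood cell RNA, with Mpo of granulocytes at 0.166 to 297 RPKM, and mesenchymal RNA, while the endothelial markers summed to 1.54 to 5.30 RPKM. In bulk RNA, fewer cells of a type and less RNA per cell cannot be told apart.

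A laminin is a trimer of 1 alpha, 1 beta and 1 gamma chain, and an integrin is a pair of 1 alpha and 1 beta subunit. Most integrin receptors of laminin join beta 1 to alpha 3, alpha 6 or alpha 7, or join beta 4 to alpha 6 in hemidesmosomes. The RGD-binding pairs read fibronectin, vitronectin and the latent form of TGF-beta. In the developing liver, bile ducts form beside the portal vein and lay down a laminin basement membrane that hepatocytes lack. The tests ask how these genes differed with the genotype and with the culture stage.

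The laminin genes were higher in the libraries labelled L1L2_Alb more often than they were lower, and Itga3, a laminin receptor subunit, rose as well. Of the 30 members that passed a mean of 1 RPKM, 6 rose (Itga3, Itgb6, Lamb2, Lama3, Lama2 and Lamc1) and 1 fell (Itgb7), at an adjusted p under 0.05 in limma with the stage as a block. Among all 13421 genes tested, 6.20% rose and 3.37% fell. Of the 8 laminin genes tested, 4 rose and none fell. Their median difference was 0.86 on the log2(RPKM + 1) scale, against 0.058 over all genes. Lama3, 1 of the 4, was below 1 RPKM in every control and passed the filter only through L1L2_Alb libraries. Of the 15 integrins outside the leukocyte and platelet ones, 2 rose, with a median of 0.38. Of the 6 leukocyte integrins tested, 1 fell, and their median was -0.82. Biliary and hepatocyte markers also differed with the genotype. Of the 5 biliary markers Krt7 and Krt19 rose, with differences of 2.17 and 1.31 (adjusted p = 0.00422 and 0.0205), and Spp1 fell, with a median of 0.82 for the list. Of the 5 hepatoblast and hepatocyte markers Hnf4a, Ttr and Alb fell, with differences of -1.33, -1.95 and -1.71 (adjusted p = 0.00373, 0.00445 and 0.0337), with a median of -1.33. Afp and Dlk1 of that list did not pass, with differences of 0.0703 and -0.698 (adjusted p = 0.914 and 0.256). The part of these markers in the integrin and laminin values was not tested. All differences between groups are on the log2(RPKM + 1) scale, which understates changes of low genes.

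**Figure D1:**
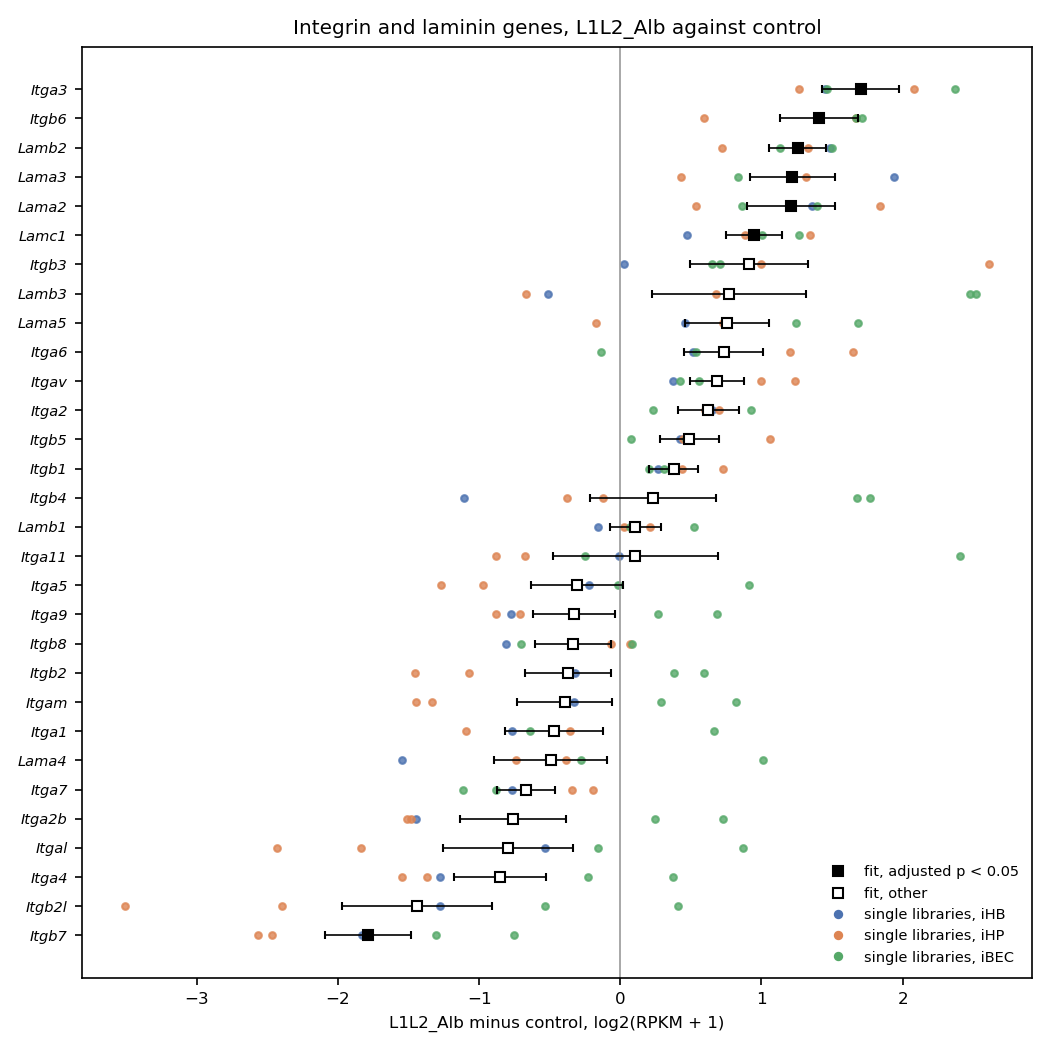
Difference between L1L2_Alb and control libraries on the log2(RPKM + 1) scale for the 30 members tested, with squares for the limma estimate and its SE, filled where the adjusted p was under 0.05, and dots for each L1L2_Alb library minus the control library of its stage. Itga3 stands at 1.70 and Itgb7 at -1.79.

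Lamc1, the gamma 1 chain found in most basement membranes, was at 63.0, 52.8 and 34.0 RPKM in the controls and at 87.9, at 98.2 and 136, and at 83.3 and 69.1 RPKM in L1L2_Alb iHBs, iHPs and iBECs. All L1L2_Alb libraries were above all controls, so the groups did not overlap. The difference was 0.95 with an SE of 0.200 (adjusted p = 0.0256). The share of all genes whose groups did not overlap was not counted, here or for the genes below. Lamc3, a rarer gamma chain, stayed under the filter at 0.0964 to 0.540 RPKM.

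**Figure D2:**
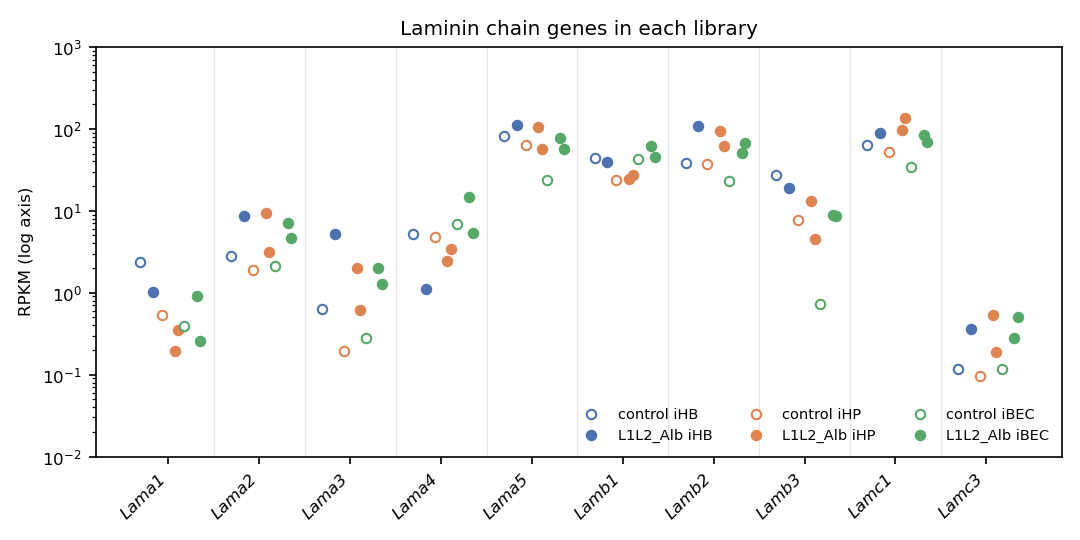
RPKM of the 10 laminin genes on a log axis, with 1 point per library, open for control and filled for L1L2_Alb, coloured by stage. The filled points of Lamc1 start at 69.1 RPKM, above its highest open point at 63.0 RPKM.

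Among the beta chains, Lamb2 rose and the others did not pass. Lamb2, the beta 2 chain, was at 38.4, 37.1 and 22.8 RPKM in control iHBs, iHPs and iBECs, and at 109, at 94.8 and 61.8, and at 51.3 and 66.4 RPKM in the L1L2_Alb libraries. The groups did not overlap, and the difference was 1.26 with an SE of 0.204 (adjusted p = 0.00979). Lamb1, the beta 1 chain that partners gamma 1 early in development, was at 43.5, 23.8 and 43.3 RPKM in the controls and at 38.9, at 24.3 and 27.7, and at 62.7 and 45.5 RPKM in L1L2_Alb. Its groups overlapped, with a difference of 0.11 (SE 0.180, adjusted p = 0.761), which became -0.0047 with upper-quartile scaling and -0.051 with quantile normalization. As RPKM is per length, levels of different chains can be set side by side. Lamb2 was 35.2%, 54.0% and 34.2% of the beta chain RPKM in the controls and 65.4%, 71.8%, 65.7%, 41.8% and 55.1% in the L1L2_Alb libraries, so the shares overlapped in part, as 41.8% in an iBEC library was below the control iHP share.

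Lamb3, a beta chain of epithelia, went with the genotype in the iBECs and is named after its values were seen. It was at 27.2, 7.80 and 0.723 RPKM in the controls, and at 18.8 RPKM in L1L2_Alb iHBs, 13.04 and 4.54 RPKM in iHPs and 8.87 and 8.61 RPKM in iBECs. The iBEC libraries labelled L1L2_Alb were 2.52 and 2.48 above their control, while 1 of 2 iHP libraries and the iHB library were below theirs. Across the stages the difference was 0.77 with an SE of 0.546 (adjusted p = 0.424), and -0.22 without the control iBEC library.

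Of the alpha chains, Lama2 and Lama3 rose, both from low levels. Lama3, the alpha 3 chain of epithelia, was at 0.632, 0.197 and 0.279 RPKM in the controls and at 5.25, at 1.98 and 0.613, and at 1.99 and 1.28 RPKM in L1L2_Alb. In recovered reads these were 186, 57 and 96 against 1558, 377, 135, 532 and 315, and only the L1L2_Alb iHP library of 0.613 RPKM fell below the highest control. The difference was 1.22 with an SE of 0.303 (adjusted p = 0.0422). As all 3 controls were under 1 RPKM, Lama3 passed the filter on the mean only through L1L2_Alb libraries. The call is therefore not independent of the filter, and with no filter the adjusted p in limma was 0.0798. Lama2, the alpha 2 chain best known from muscle, was at 2.79, 1.88 and 2.11 RPKM in the controls and at 8.71, at 9.29 and 3.18, and at 7.19 and 4.64 RPKM in L1L2_Alb. All 5 lay above all 3 controls, by 1.21 with an SE of 0.311 (adjusted p = 0.0473).

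Lama5, the alpha 5 chain of epithelial basement membranes, was the main alpha chain, at 71.1% to 89.6% of the alpha chain RPKM in every library. It was at 82.1, 63.9 and 23.6 RPKM in control iHBs, iHPs and iBECs, and at 113, at 107 and 56.7, and at 77.8 and 57.2 RPKM in the L1L2_Alb libraries. The groups overlapped, 1 of 5 L1L2_Alb libraries was below its control, and the difference of 0.76 (SE 0.297) had an adjusted p of 0.149. Lama4, of vessels and mesenchyme, had a difference of -0.49 (adjusted p = 0.489) at 1.12 to 14.7 RPKM. Lama1, the alpha chain of early embryonic membranes, was too low to be tested, at 0.194 to 2.35 RPKM.

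**Figure D3:**
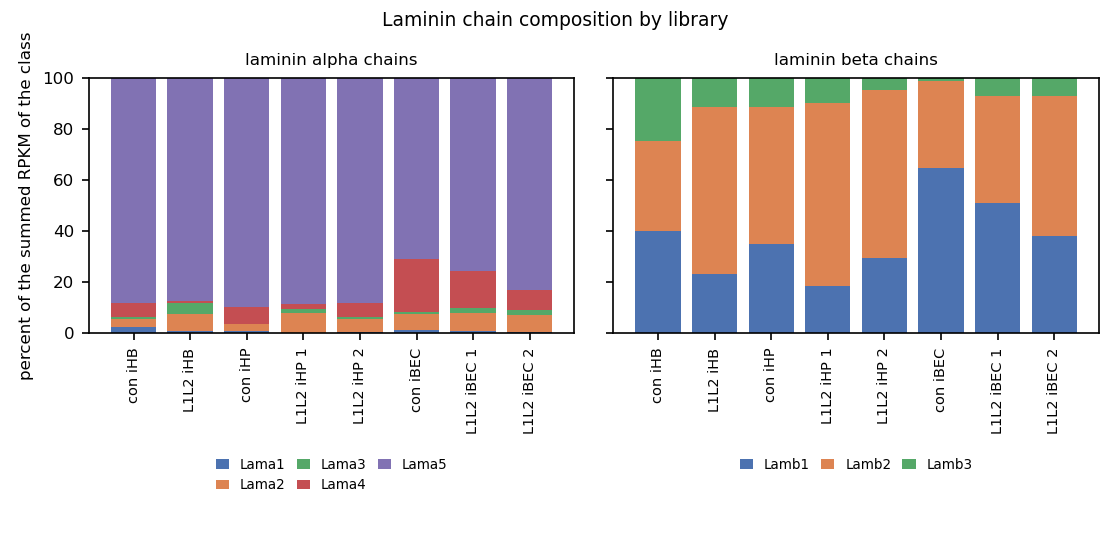
Share of each chain in the summed RPKM of its class, in percent, with 1 bar per library for the alpha chains and for the beta chains. Lama5 takes at least 71.1% of the alpha chains in every library, and Lamb2 takes 34.2% to 54.0% of the beta chains in the controls and 41.8% to 71.8% in the libraries labelled L1L2_Alb.

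Of the subunits of laminin-binding integrins, Itga3 rose. Itga3, the alpha subunit that binds laminins with beta 1, was at 141, 105 and 40.4 RPKM in control iHBs, iHPs and iBECs. It was at 387 RPKM in the L1L2_Alb iHBs, at 254 and 450 RPKM in the iHPs and at 113 and 213 RPKM in the iBECs. Every L1L2_Alb library was above the control of its stage, although the groups overlapped, because an L1L2_Alb iBEC library was below the control iHBs. The difference was 1.70 with an SE of 0.274 (adjusted p = 0.00979), and without the control iHP library it was 1.72 with an SE of 0.369 (adjusted p = 0.0644).

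The other laminin-binding subunits did not pass. Itga6, the alpha 6 subunit, was at 28.0 to 29.1 RPKM in the controls and at 26.4 to 90.1 RPKM in L1L2_Alb, with a difference of 0.73 (adjusted p = 0.139). Itga7, known from muscle, was below its control in 5 of 5 L1L2_Alb libraries, by 0.67 with an SE of 0.205 in the fit (adjusted p = 0.079). Itgb4, the hemidesmosome beta subunit, had a difference of 0.23 (adjusted p = 0.794), with L1L2_Alb iBECs 1.77 and 1.68 above their control and the iHB and both iHP libraries below theirs.

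The composition of the alpha subunits differed with Itga3. It took 33.7%, 31.3% and 19.9% of the RPKM of the alpha subunits outside leukocyte and platelet ones in control iHBs, iHPs and iBECs. In L1L2_Alb it took 59.5% in the iHBs, 54.3% and 65.5% in the iHPs and 32.5% and 55.4% in the iBECs, above the control of each stage. Itga5, the fibronectin receptor alpha subunit, took 44.6%, 44.4% and 33.3% in the controls and 24.6%, 16.2%, 8.95%, 36.8% and 17.3% in L1L2_Alb. The lower share of Itga5 was found in 4 of 5 L1L2_Alb libraries against the control of the stage, and its own level overlapped between the groups. Itga5 was at 186, 150 and 67.6 RPKM in the controls and at 159, at 75.8 and 61.5, and at 128 and 66.7 RPKM in L1L2_Alb, a difference of -0.31 (SE 0.327, adjusted p = 0.616) that was 0.16 without the control iHP library.

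Of the other RGD-binding subunits, Itgb6 rose. Itgb6, the epithelial beta 6 subunit that with alpha v frees TGF-beta from its latent complex, was at 4.76, 3.28 and 0.522 RPKM in the controls and at 14.1, at 12.6 and 5.46, and at 3.85 and 3.99 RPKM in L1L2_Alb. Each L1L2_Alb library exceeded the control of its stage, and the iBEC libraries overlapped with the iHB and iHP controls. The difference was 1.41 with an SE of 0.275 (adjusted p = 0.0193). Its partner Itgav was higher in 5 of 5 libraries, by 0.69 with an SE of 0.191, which did not pass (adjusted p = 0.060). Itgb3, Itgb5 and Itgb8, the other partners of alpha v, had differences of 0.91, 0.49 and -0.33 and did not pass (adjusted p = 0.214, 0.182 and 0.491).

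Itgb1, the beta 1 subunit shared by the laminin, collagen and fibronectin receptors, was the most abundant beta subunit in every library, at 67.8% to 80.8% of the beta subunits outside leukocyte ones. It was at 274, 215 and 185 RPKM in control iHBs, iHPs and iBECs, and at 330, at 292 and 357, and at 213 and 230 RPKM in L1L2_Alb. It was above the control of its stage in 5 of 5 libraries, the groups overlapped, and the difference of 0.38 (SE 0.172) had an adjusted p of 0.21. The collagen-binding subunits Itga1, Itga2 and Itga11 had differences of -0.47, 0.62 and 0.11 and did not pass (adjusted p = 0.446, 0.11 and 0.933). The groups of Itga2 did not overlap, at 2.67 to 4.16 RPKM in the controls and 4.76 to 8.80 RPKM in L1L2_Alb. Itga10 was too low to be tested. Itga9, which binds tenascin and osteopontin, had a difference of -0.33 (adjusted p = 0.529). Itga8, an RGD-binding subunit of mesenchyme, stayed under the filter, with 357, 335 and 17 reads in the controls and 163, 5, 19, 54 and 35 reads in L1L2_Alb.

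The promoters of these genes were read for the letters of TEAD, the DNA-binding partner of YAP and TAZ (CATTCC or GGAATG), and of AP-1 (TGANTCA), on both strands, with joined matches allowed to share the letters CA. RefSeq (GRCm38.p6) windows of 250 bases before to 50 bases after the start were given for 24 of the 37 genes, 27 windows in all. The TEAD letters were in 3 of 27 windows, or 11.1%, against 14.7% of all 32851 windows and 12.7% of the 12289 windows of genes tested. The AP-1 letters were in 3 of 27 windows, or 11.1%, against 7.81% of all and 5.68% of those of genes tested. No test was run on these shares. Of the 6 genes that rose, 4 had windows, 6 in all, and of these none held the TEAD letters and 1, of Itga3, held the AP-1 letters. Itga3 has another window, of an upstream start, at chr11:95076665-95076964, and it held neither. A match is a description of letters and not a binding site, and the windows leave out distant elements. The stretches below have matches in capitals. The first shows the AP-1 match of Itga3, with 30 bases on either side of the downstream start that it lies next to. The TEAD match next to the start of Itgb1, which did not pass the test, follows. Last is the same stretch of Lamb2, which rose and holds neither.
Itga3, chr11:95069169-95069228, minus strand: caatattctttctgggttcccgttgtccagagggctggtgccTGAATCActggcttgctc
Itgb1, chr8:128685534-128685653, plus strand: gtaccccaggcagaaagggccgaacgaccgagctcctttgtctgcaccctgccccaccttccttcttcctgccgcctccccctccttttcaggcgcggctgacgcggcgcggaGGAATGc
Lamb2, chr9:108479742-108479861, plus strand: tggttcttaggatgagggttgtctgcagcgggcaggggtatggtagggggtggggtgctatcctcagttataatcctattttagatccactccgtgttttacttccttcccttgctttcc

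Of the leukocyte integrins, Itgb7 fell with the genotype and the other 5 tested did not pass. No blood cell marker on the lists was called, although the median difference of each blood cell list was negative. Itgb7, the beta 7 subunit of lymphocytes and mast cells, was at 16.1, 8.44 and 2.51 RPKM in control iHBs, iHPs and iBECs, and at 3.83, at 0.710 and 0.597, and at 0.419 and 1.08 RPKM in L1L2_Alb. Every L1L2_Alb library was below the control of its stage, while the L1L2_Alb iHBs were above the control iBECs, so the groups overlapped. Itgb7 fell by 1.79 with an SE of 0.304 (adjusted p = 0.0116). Itga4, which pairs with beta 7 or beta 1, had a difference of -0.85 (adjusted p = 0.144). Itgal, Itgam, Itgb2 and Itgb2l, of the beta 2 family that leukocytes use for adhesion and complement binding, had differences of -0.79, -0.39, -0.37 and -1.44 and did not pass (adjusted p = 0.325, 0.518, 0.503 and 0.129). Itga2b, the platelet subunit, had a difference of -0.76 (adjusted p = 0.247). Itgad, Itgae and Itgax were too low to be tested, at up to 1.91 RPKM.

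The summed level of the 9 leukocyte integrins was 318, 189 and 90.8 RPKM in control iHBs, iHPs and iBECs, and 224, 57.0, 61.2, 108 and 147 RPKM in the libraries labelled L1L2_Alb. Both L1L2_Alb iHP libraries were below the control iHPs and both iBEC libraries above the control iBECs. The 5 leukocyte markers (Ptprc, Cd53, Laptm5, Coro1a and Cd48) summed to 628, 379 and 215 RPKM in the controls and to 372, 82.2, 94.2, 244 and 275 RPKM in L1L2_Alb, with the same order within each stage. The median difference of these markers was -0.64, with 5 of 5 lower and none called. The 5 granulocyte markers summed to 3134 to 13740 RPKM in the controls and to 43.2 to 4387 RPKM in L1L2_Alb, with a median difference of -3.67, and the 5 macrophage markers to 334 to 457 and 224 to 563 RPKM, with a median of -0.23; none of either list was called. Of the 5 mast cell markers 3 were tested and none was called, with sums of 3.37 to 19.6 and 3.00 to 5.11 RPKM. Their median difference was -1.31, with Cpa3 at -2.07, Kit at -1.31 and Mcpt8 at 0.193 (adjusted p = 0.0555, 0.085 and 0.693 in limma). Of the 5 platelet markers 3 were tested and none was called, with sums of 51.8 to 136 and 25.5 to 199 RPKM. The median difference of these 3 was -1.36. The part of cell numbers in the leukocyte integrin values was not tested.

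**Figure D4:**
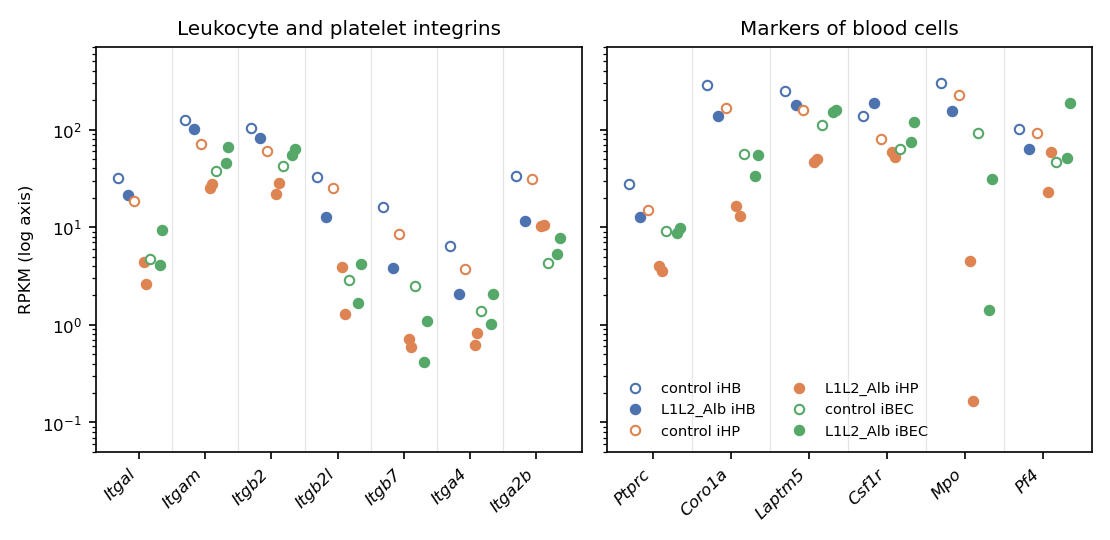
RPKM on a log axis of 6 leukocyte integrins and Itga2b (left) and of 6 blood cell markers (right), with 1 point per library, open for control and filled for L1L2_Alb, coloured by stage. In the iHPs the filled points of Itgam, at 25.4 and 27.5 RPKM, lie below the open point at 70.9 RPKM, and those of Ptprc, at 4.00 and 3.59 RPKM, below 14.9 RPKM.

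The 5 mesenchymal markers (Col1a1, Pdgfra, Pdgfrb, Des and Dcn), of cells that also use Itga8, Itga11, Lama2 and Lama4, summed to 1134 to 1648 RPKM in the controls and 309 to 1534 RPKM in L1L2_Alb, with a median difference of -1.0 and none of 5 called. The ranges overlapped, and their part in the values of these genes was not tested.

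The effect of the genotype was set against the stage. No member passed the moderated F test of limma for a difference between stages, nor did any of the 13421 genes (smallest adjusted p = 0.122), with 733 genes and 7 members at an unadjusted p under 0.05 and 2 residual degrees of freedom. Itgb4 had the lowest p of the members (0.00317, adjusted 0.46), followed by Itga2b (0.0118, adjusted 0.6) and Lamb3 (0.0156, adjusted 0.65).

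Between stages, with the genotype in the model, Itga7 rose in the iBECs against both other stages, and Itga3, Itgb3, Itgb6 and Itgb7 fell in 1 comparison each. The 3 stage comparisons share libraries, so they are not independent of one another. From iHBs to iHPs none of the 30 members and none of 13421 genes was called in limma, or 0%, while 1158 genes and 7 members had an unadjusted p under 0.05. From iHBs to iBECs 1 member rose, against 2.94% of all genes, and 3 fell, against 2.78%. From iHPs to iBECs 3 rose, against 2.45%, and 1 fell, against 1.67%. Of these 3, Itgb8 passed the filter only through the iBECs. The median over all genes was -0.253 from iHBs to iBECs, and -0.00446 after upper-quartile scaling, and the median of the members was -0.66 and -0.395.

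Itga7, the alpha 7 laminin receptor of muscle, was at 3.5 and 1.65 RPKM in control and L1L2_Alb iHBs, at 6.4 RPKM in control iHPs and 4.84 and 5.49 RPKM in L1L2_Alb iHPs, and at 31.9 RPKM in control and 16.9 and 14.2 RPKM in L1L2_Alb iBECs. The iBECs, iHPs and iHBs did not overlap. It rose by 2.70 from iHBs (SE 0.256, adjusted p = 0.00138) and by 1.66 from iHPs (SE 0.227, adjusted p = 0.0114), and both passed in all 15 alternative analyses. Itgb8, which with alpha v binds latent TGF-beta, was at 66 and 0 reads in control and L1L2_Alb iHBs. It was at 19, 16 and 11 reads in the iHPs, and 281, 237 and 95 reads in the iBECs. In RPKM these were 0.167 to 0.280 in the iHPs and 1.29 to 2.96 in the iBECs, a rise of 1.40 (SE 0.297, adjusted p = 0.0415 in limma). Its mean of 1.05 RPKM passed the filter only through the iBECs, so the call is not independent of the filter. With no filter the adjusted p in limma was 0.0685. Lamb1 rose by 0.96 from iHPs (SE 0.200, adjusted p = 0.0401), with 43.3 to 62.7 RPKM in the iBECs above 23.8 to 27.7 RPKM in the iHPs. The iHBs, at 38.9 to 43.5 RPKM, overlapped with the iBECs, and the difference from iHBs was 0.25 (adjusted p = 0.504 in limma).

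The genes that were lower in the iBECs were Itgb3 against iHPs and Itga3, Itgb6 and Itgb7 against iHBs. Itgb3, the beta 3 subunit of the vitronectin receptor, was at 11.4 and 11.6 RPKM in control and L1L2_Alb iHBs, at 10.4 RPKM in control and 21.7 and 68.6 RPKM in L1L2_Alb iHPs, and at 2.90 RPKM in control and 5.12 and 5.37 RPKM in L1L2_Alb iBECs. The iBECs lay below all other libraries, and 1 iHP library lay far above the rest. Itgb3 fell by 2.30 from iHPs to iBECs (SE 0.462, adjusted p = 0.0356), and by 1.69 without that library (adjusted p = 0.0278). Itga3, Itgb6 and Itgb7 fell from iHBs to iBECs, with differences of -1.51, -1.72 and -1.76 (adjusted p = 0.0418, 0.0261 and 0.034).

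**Figure D5:**
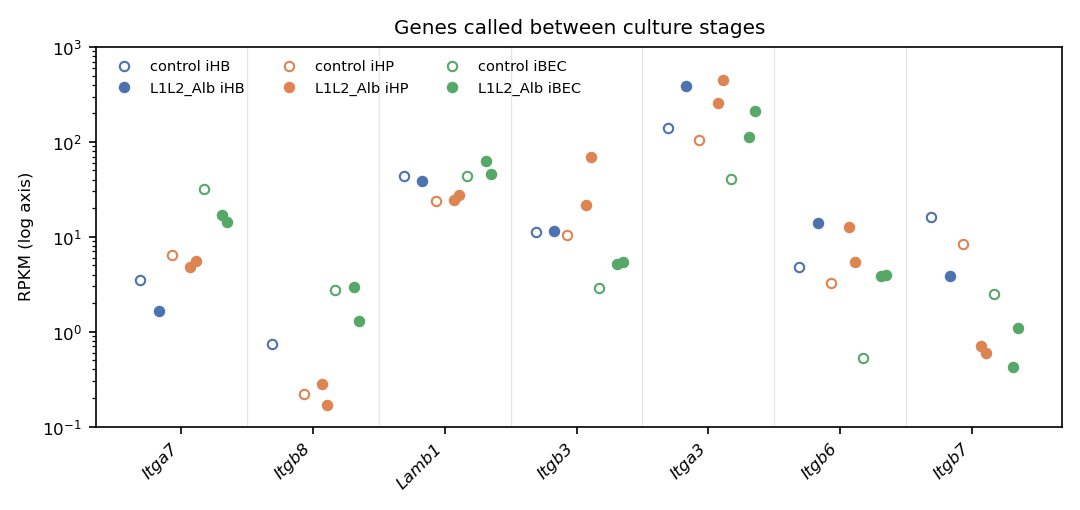
RPKM on a log axis of the 7 members called between stages, with 1 point per library, open for control and filled for L1L2_Alb, coloured by stage. Itga7 lies at 14.2 to 31.9 RPKM in the iBECs and at 1.65 to 6.4 RPKM in the other libraries, and the value of 0 for Itgb8 in the L1L2_Alb iHBs cannot be drawn on this axis.

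Several of these calls were lost when a single library was left out. Leaving out the 1 control library of a stage took that stage out of the genotype estimate, as did leaving out either iHB library. Of the 7 genotype calls, none was left in limma without the control iHP library, where 9 members had an unadjusted p under 0.05, 1 (Itga3) without either iHB library, and 3 without the second L1L2_Alb iBEC library. Without the control iHP library the differences were 1.72 for Itga3, 1.56 for Itgb6, 1.39 for Lamb2, 1.42 for Lama3, 1.23 for Lama2, 0.85 for Lamc1 and -1.37 for Itgb7. Without the control iHB library they were 1.80, 1.41, 1.17, 0.95, 1.16, 1.12 and -1.77 in the same order, and without the second L1L2_Alb iBEC library 1.54, 1.37, 1.20, 1.30, 1.30, 0.97 and -1.95. Calls over all genes dropped too, from 832 higher and 452 lower to 157 and 48 without the control iHP library and to 231 and 99 without the control iHB library. Itga3 passed in 14 of 15 alternatives. Itgb6 passed in 9 of 15 alternatives, Lamb2 in 12 of 15, Lamc1 in 8 of 15, Itgb7 in 11 of 14, and Lama2 and Lama3 in 5 of 14 each. Their highest adjusted p was 0.0974 for Itgb6, 0.0699 for Lamb2, 0.205 for Lamc1, 0.0934 for Itgb7, 0.23 for Lama2 and 0.195 for Lama3, and none of these differences changed sign in an alternative. Of the stage calls beside Itga7, Itgb3 passed in 9, Itga3 and Itgb6 in 8 and Lamb1 in 6 of 15, and Itgb7 in 5 and Itgb8 in 2 of 14. From iHBs to iBECs 1 member was left without either iHB library, without the control iBECs or without the first L1L2_Alb iBECs, and 9 passed without the second L1L2_Alb iHPs. From iHPs to iBECs 1 was left without either iHB library, the first L1L2_Alb iHPs or either L1L2_Alb iBEC library, and 2 without the control iHPs.

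Genes that act with integrins and laminins were counted from lists of known partners, to be read against the 6.20% of all genes that rose and the 3.37% that fell. Of 9 basement membrane partners, whose median difference was 0.62 against 0.058 over all genes, 2 rose and none fell, namely Nid2, a nidogen that links laminin to collagen IV, by 1.92 (SE 0.396, adjusted p = 0.0234), and Col4a2, a collagen IV chain, by 0.93 (SE 0.176, adjusted p = 0.0175). Of 5 other laminin receptors (median 0.19), 2 rose and none fell, Bcam, which binds laminin alpha 5, by 1.62 (SE 0.246, adjusted p = 0.00822) and Dag1, dystroglycan, by 1.55 (SE 0.237, adjusted p = 0.00856). Bcam was at 36.6 to 57.5 RPKM in the controls and at 78.3 to 215 RPKM in L1L2_Alb, with no overlap.

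Of 20 adaptors and focal adhesion proteins tested (median 0.34), Parva and Bcar1, which carry signals from integrin tails, rose by 1.13 and 1.30 (adjusted p = 0.00833 and 0.00896) and none fell, a count of 2 of 20 that is near the 6.20% of all genes. Of 5 hemidesmosome and tetraspanin partners tested (median 0.6), Cd81 rose by 0.81 (adjusted p = 0.0498). Of 14 integrin ligands (median 0.05), Ctgf, Cyr61 and Npnt rose by 1.73, 1.93 and 1.29 (adjusted p = 0.00796, 0.00222 and 0.0114), where Ctgf and Cyr61 are known targets of YAP. Vtn, Fn1 and Spp1, which code for vitronectin, fibronectin and osteopontin, fell, with differences of -3.57, -1.54 and -1.5 (adjusted p = 0.00498, 0.01 and 0.0306). Vtn, a product of hepatocytes, was at 172 to 780 RPKM in the controls and at 4.05 to 217 RPKM in L1L2_Alb, lower than the control in each stage. The hepatocyte markers Alb, Hnf4a and Ttr were also lower in each stage. Of the same list, Afp was higher than the control in the L1L2_Alb iHBs and iBECs, and Dlk1 in the L1L2_Alb iBECs. The part of these markers in the value of Vtn was not tested. Of 8 TGF-beta forms and latency partners (median -0.19), Tgfb2 rose by 1.54 (SE 0.187, adjusted p = 0.00373) and Ltbp3 by 0.61 (SE 0.155, adjusted p = 0.0458), and none fell. The study had itself singled out Tgfb2, Ctgf and Cyr61 and the markers Krt7, Krt19 and Hnf4a. It also lists Itga5 and Itgb6 among its genes, so the direction of all of these is not independent evidence.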

How the data were processed

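RNA of 8 cultures was sequenced from TruSeq libraries. The values deposited by the authors were taken as RPKM, or its per-fragment equivalent, scaled to gene length and library size with no further step between libraries, since low values of short genes are multiples of what 1 read is worth. The submitters' processing notes name Bowtie 0.12.2 and mm8. The counting method, annotation and treatment of reads shared by similar genes (such as Itgb2 and Itgb2l) are not given in the sources used here. Of 23471 entries, 4 of repeated symbols were left out.

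Reads per library were recovered from the steps of short genes, and whole reads (within 0.02) for 31 of the 37 members. The floor was 3 reads, which covers counting error only.

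After a filter on the mean over libraries (1 RPKM), 13421 genes, 30 of them members, were fitted as log2(RPKM + 1) on stage and genotype by limma 3.58.1 (R 4.3.3, eBayes, trended prior), with 4 residual degrees of freedom. All tests were two-sided, with Benjamini-Hochberg adjustment over all genes and a threshold of 0.05. Within a stage, libraries were compared without a test. The script was tested on simulated data. Alternatives were pseudocount, filter, scaling, prior, threshold, replicate block and leaving out each library. Values in every library were given for members called by genotype, members called with a change of at least 2 between stages, and Itgb1, Lama5, Lamb1, Lamb2, Lamc1, Itgb6 and Itga5; other members named singly were picked after their values were seen. Members and lists were chosen with earlier results of these data known. 1 gene that the symbols would take is not reported here, and counts of members leave it out.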

Additional observations from a re-analysis of the deposited data

Results flagged for a closer look

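In 7 genes every L1L2_Alb iHP library was below and every L1L2_Alb iBEC library above the control of its stage, with 1 control library per stage. The share of all genes with this pattern was not counted. Over all genes tested, the median difference from the control was 0.014 and -0.03 in the L1L2_Alb iHP libraries. It was 0.223 and 0.264 in the L1L2_Alb iBEC libraries, so a rise in iBECs was in part shared by all genes. The mean differences on the log2(RPKM + 1) scale were -1.50 in iHPs and 0.49 in iBECs for Itga2b, -0.80 and 0.48 for Itga9, -1.39 and 0.56 for Itgam, -1.26 and 0.49 for Itgb2, and -0.25 and 1.72 for Itgb4. The moderated F test of limma did not pass for these 5 genes (adjusted p = 0.6, 1, 0.725, 0.791 and 0.46). For Itga8, at -1.48 in iHPs and 0.26 in iBECs, and Itgax, at -0.94 and 0.17, the difference was not tested, as both were under the filter. No condition had 4 or more libraries, so no library was tested for standing apart.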

How the results depend on the processing

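The count of members called by genotype (7) was 3 with no filter, 4 with a mean of at least 5 RPKM and 0 to 7 with a library left out. The iBEC against iHB count (4) was 1 with no filter and 1 to 9 with a library left out. The iBEC against iHP count (4) was 7 at an adjusted p under 0.1, 1 with no filter and 1 to 5 with a library left out. The iHP against iHB count was 0 in every setting. With a library left out, values ran from -0.45 to 0.61 for Itga11, -0.74 to 0.16 for Itga5, -0.93 to 0.18 for Itgam, -0.86 to 0.14 for Itgb2, -0.62 to 0.74 for Itgb4, -0.22 to 1.25 for Lamb3 and -0.00084 to 0.21 for Lamb1, so that signs turned. The negative values of Itga11 came without control iBEC and without the first L1L2_Alb iBEC (-0.39), those of Itgb4, Lamb3 and Lamb1 without control iBEC, and the positive ones of Itga5, Itgam and Itgb2 without control iHP. Lamb1 also turned to -0.0047 with upper-quartile scaling and -0.051 with quantile normalization. None of these genes was called by genotype. Over all genes, 832 rose and 452 fell with genotype as deposited, 612 and 577 after upper-quartile scaling, and 687 and 607 after quantile normalization. The cause of these changes was not tested. The labels give L1L2_Alb iHP and iBEC libraries shared numbers, whose deviations did not go together (r = -0.0216 over 13421 genes, 2 pairs). With 1 difference between replicates per stage, this cannot show whether same-numbered libraries share an embryo or a batch. With a replicate block, 6 members were called by genotype, 2 from iHBs to iBECs, and 31 genes, none a member, in the test between stages, where the other settings gave 0 genes. Depth limits Itgad, at 0 to 10 reads per library. For Itgae (2 to 108 reads), Itgax (0 to 219) and Lamc3 (16 to 72) it limits the lowest libraries. Itga8 was also at few reads in some, with 5 and 19 in the L1L2_Alb iHPs and 17 in the control iBECs.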
